A study of Mus musculus with 4 samples.

Results

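Activin signalling in the adult hippocampus was followed here through 9 genes of the 32285 in the count tables. These were the ligand subunit genes Inhba and Inhbb, the receptor genes Acvr2a, Acvr2b, Acvr1, Acvr1b and Acvr1c, the secreted antagonist Fst and the decoy receptor Bambi. Each was taken by its gene symbol, and each symbol matched 1 row. RNA of single nuclei was sequenced from the hippocampi of 4 mice, with 1 library per mouse and both hemispheres of a mouse in 1 library. The 2 WT libraries (WT1 and WT2) came from wild-type mice and the 2 KI libraries (KI1 and KI2) from heterozygous Cyfip2+/R87C knock-in mice, all on the C57BL/6N strain and, per the study, at postnatal week 28. The R87C allele changes an arginine of CYFIP2, a subunit of the WAVE complex that drives branched actin assembly, and models a human early-onset epilepsy known as West syndrome. The knock-in is carried by every cell of the mouse, so a difference in 1 cell class cannot be told apart from an effect of the allele in other cells. The treatment label of KI2 spells the allele R88C, whereas its genotype label places it with the KI mice, where it was kept.

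Activins are dimers of beta subunits encoded by Inhba and Inhbb and belong to the transforming growth factor beta family. An activin binds a type II receptor (ACVR2A or ACVR2B), which then recruits and phosphorylates a type I receptor, usually ACVR1B or ACVR1C, and the type I receptor phosphorylates SMAD2 and SMAD3. ACVR1 is a type I receptor that mostly serves bone morphogenetic proteins through SMAD1, SMAD5 and SMAD9 and can be held by activin A in a complex that does not signal. Follistatin, the product of Fst, wraps activin and keeps it from its receptors, and BAMBI resembles a type I receptor without its kinase. In the hippocampus Inhba is known as a gene switched on by neuronal activity.

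Nuclei were assigned to 16 cell classes by clustering and by marker genes, with all 9 members left out of the clustering, so each class name stands for likeness to its markers. Of 55640 barcodes, 52032 nuclei were kept, and 10566 of them (20.3%) stayed without a class name. The unnamed share was 11% in WT1, 18.8% in WT2, 19.5% in KI1 and 33.4% in KI2. The fibroblast class held 189, 150, 208 and 202 nuclei in WT1, WT2, KI1 and KI2. Under finer clustering (resolution 1.0) it held 79, 102, 117 and 138. Values given for fibroblasts may therefore include other cells, which was not tested. Total counts per library ran from 73009975 to 80913580 UMIs (unique molecular identifiers, 1 per captured transcript). Pairs of libraries shared between 39 and 66 barcodes, at most 0.526% of the smaller library. The 2 KI libraries differed from each other more than the 2 WT libraries did, with a chi-square over genes of 43.0 per degree of freedom against 15.4. Cyfip2 itself was counted at 182 and 180 CPM (UMIs scaled to a library total of 1000000) in the WT libraries and at 172 and 171 in the KI libraries, a count of transcripts that does not read the altered base.

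The members lie on 6 chromosomes (GRCm38, GENCODE M21). Inhba is at chr13:16011851-16031621 on the plus strand and Inhbb at chr1:119415465-119422248 on the minus strand. Of the receptors, Acvr1c (chr2:58267453-58357895) and Acvr1 (chr2:58388644-58567157) lie on the minus strand of the same stretch of chromosome 2. Acvr2a is at chr2:48814109-48903269, Acvr2b at chr9:119402118-119434995 and Acvr1b at chr15:101174067-101213684, all on the plus strand. Fst is at chr13:114452290-114458951 on the minus strand and Bambi on chromosome 18. Over all nuclei the files held 17134 UMIs of Inhba, 427 of Inhbb, 31358 of Acvr2a, 2060 of Acvr2b, 29207 of Acvr1, 7194 of Acvr1b, 9308 of Acvr1c, 727 of Fst and 773 of Bambi. Values for Inhbb, Acvr2b, Fst and Bambi therefore rest on few counts in most classes. All levels below are CPM, the UMIs of a gene over all UMIs of the same library and class, scaled to 1000000, and are compared within a gene only.

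Acvr1c, a type I receptor for activins and related ligands, was the member with the strongest genotype difference. In DG (dentate gyrus) granule neurons it stood at 30.7 and 35.4 CPM in WT1 and WT2 and at 153 and 111 CPM in KI1 and KI2, which was 4.4-fold higher in KI (log2 fold change 2.14 ± 0.19, SE, n = 2 mice per genotype; edgeR quasi-likelihood test, adjusted p = 0.00355). Acvr1 rose in the same nuclei and Acvr2a, the type II receptor gene, fell. These were the 3 members of 9 that passed an adjusted p of 0.05 in DG granule neurons, where 9.85% of 16339 genes passed, and with WT1 or WT2 left out Acvr1c alone passed. Here and below, log2 fold changes are KI over WT after TMM scaling of the class sums, so they can depart from the ratio of the CPM values, and with 2 mice per genotype an exact permutation test could not go below p = 0.333.

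**Figure D1:**
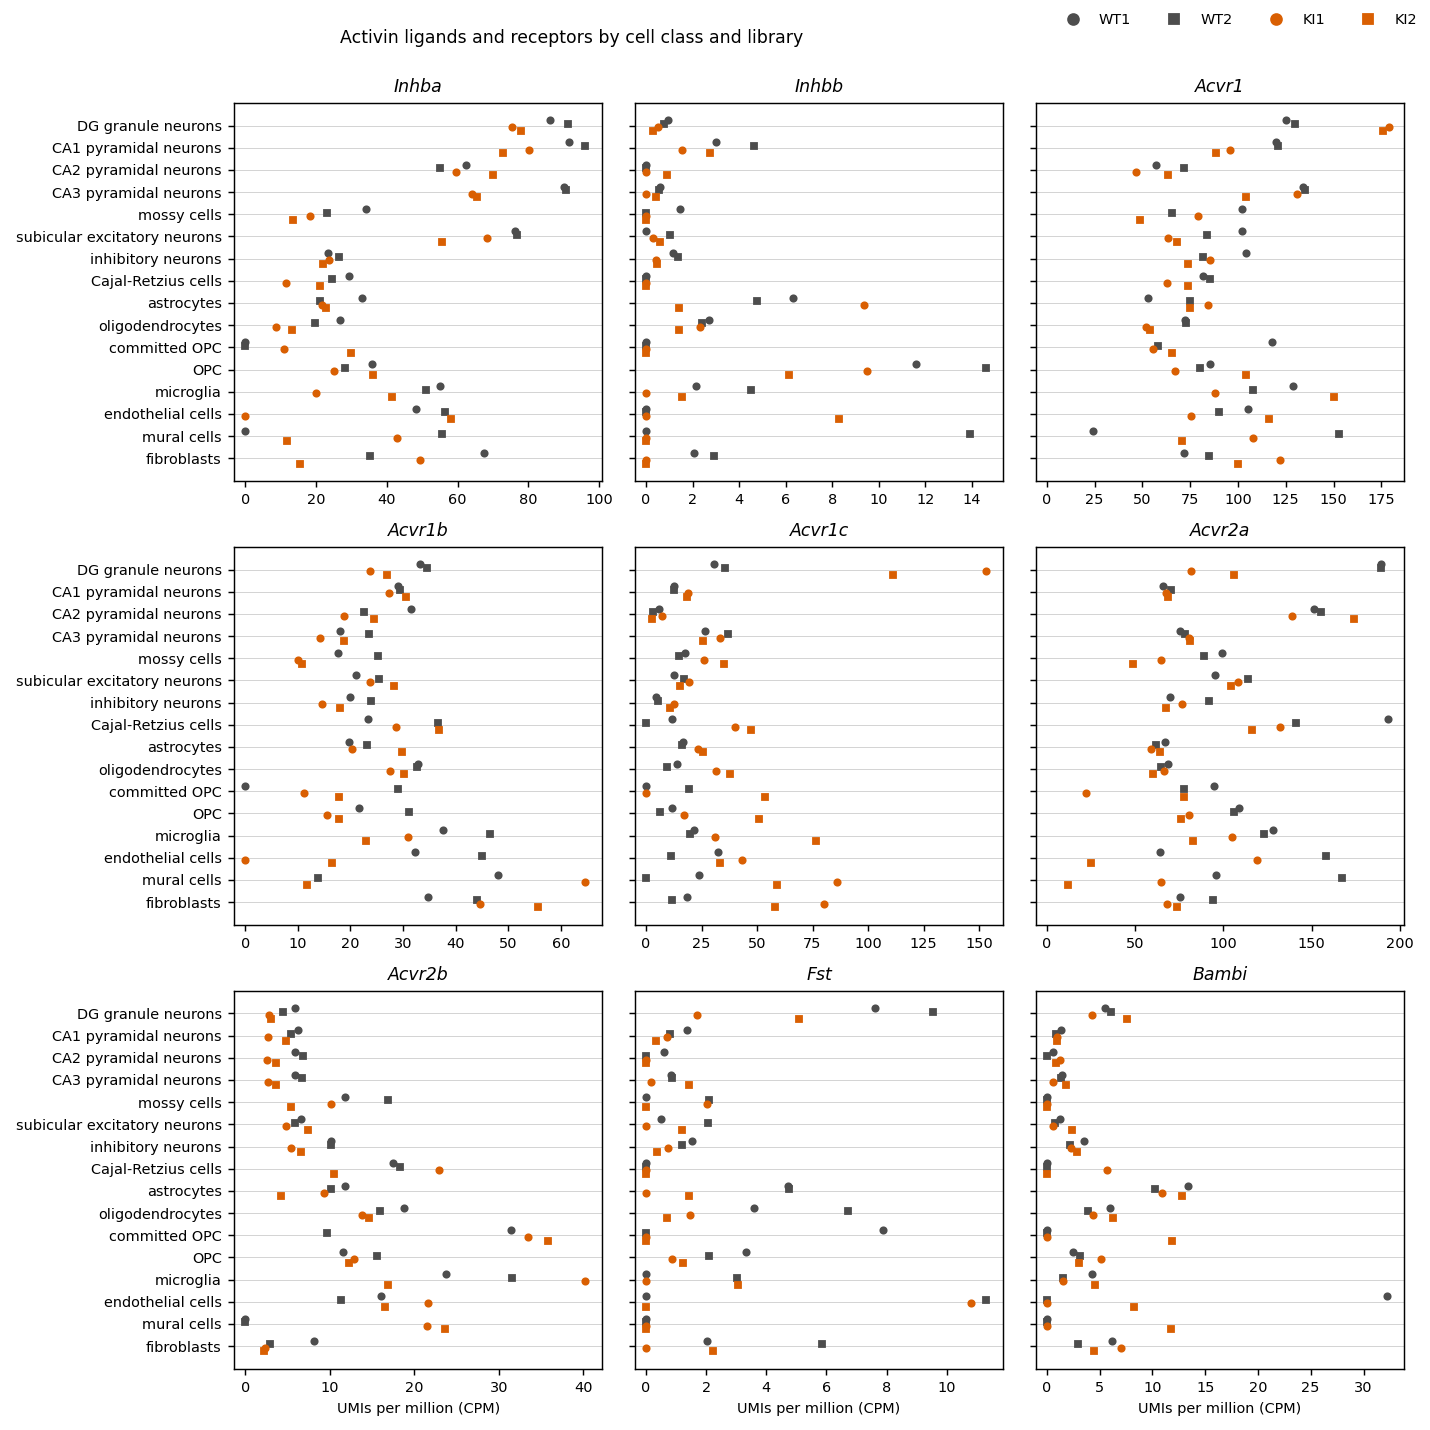
Level of each of the 9 members (x axis, CPM, with its own linear scale in each panel) in 16 cell classes (rows), 1 point per library, grey for WT and orange for KI. Acvr1c in DG granule neurons stands apart, with 153 and 111 CPM in the KI libraries against 30.7 and 35.4 CPM in the WT libraries.

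The 3 genes that passed in DG granule neurons, and Inhba for contrast, are shown by the 250 bases upstream of the RefSeq start (GRCm38.p6, written 5′ to 3′ on the strand of the gene). Capitals mark the GC box GGGCGG and the Smad box CAGAC on either strand. The regions are chr2:58357759-58358008 for Acvr1c, chr2:58566829-58567078 for Acvr1, both on the minus strand, and chr2:48813859-48814108 for Acvr2a and chr13:16011601-16011850 for Inhba, both on the plus strand. The GENCODE start of 2 of the genes lies further upstream, so that 250 of the 250 bases of the Acvr1 window and 137 of the 250 bases of the Acvr1c window fall inside the gene as GENCODE draws it.
Acvr1c: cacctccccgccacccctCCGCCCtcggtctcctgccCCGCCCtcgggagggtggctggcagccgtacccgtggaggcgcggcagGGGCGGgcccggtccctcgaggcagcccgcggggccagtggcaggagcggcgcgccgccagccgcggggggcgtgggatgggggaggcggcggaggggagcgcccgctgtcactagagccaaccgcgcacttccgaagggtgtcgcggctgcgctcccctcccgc
Acvr1: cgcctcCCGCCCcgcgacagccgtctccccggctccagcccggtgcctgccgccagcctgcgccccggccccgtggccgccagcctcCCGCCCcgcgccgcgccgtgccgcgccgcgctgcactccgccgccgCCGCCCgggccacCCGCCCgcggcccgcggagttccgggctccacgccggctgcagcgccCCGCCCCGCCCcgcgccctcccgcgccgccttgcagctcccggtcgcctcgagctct
Acvr2a: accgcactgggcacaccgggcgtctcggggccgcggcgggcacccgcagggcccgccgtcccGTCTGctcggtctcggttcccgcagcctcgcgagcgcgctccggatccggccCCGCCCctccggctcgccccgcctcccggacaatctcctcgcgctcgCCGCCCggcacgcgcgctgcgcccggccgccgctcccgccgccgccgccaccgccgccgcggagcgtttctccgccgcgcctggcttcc
Inhba: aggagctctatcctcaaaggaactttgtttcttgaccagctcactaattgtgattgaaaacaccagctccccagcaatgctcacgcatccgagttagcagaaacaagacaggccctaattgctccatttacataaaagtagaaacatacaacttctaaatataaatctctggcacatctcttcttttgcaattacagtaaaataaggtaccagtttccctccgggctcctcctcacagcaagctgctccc

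The 3 receptor promoters were rich in G and C (79.6% for Acvr1c, 85.6% for Acvr1 and 82.0% for Acvr2a) and held 3, 6 and 2 GC boxes, whereas the Inhba window had 43.2% G and C and no match. Of 32851 RefSeq promoters of the same length, 32.7% held a GC box. The Smad box occurred once in the Acvr2a window and not in the others, and 42.2% of all promoters held it. The motifs GGCGCC (in 9.59% of all promoters) and TGACG (in 17.8%) matched none of the 4 windows. A match or its absence describes these letters only.

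The ligand gene Inhba encodes the beta A subunit and had its highest means in 5 classes of excitatory neurons. CA1 pyramidal neurons had a mean of 85.1 ± 10.6 CPM (SD, n = 4 libraries), DG granule neurons 82.6 ± 7.3 CPM and CA3 pyramidal neurons 77.6 ± 14.7 CPM. These 3 classes overlapped in their ranges over libraries and cannot be ordered. Subicular excitatory neurons followed at 69.2 CPM and CA2 pyramidal neurons at 61.7 CPM, and fibroblasts and microglia at 41.9 CPM each (15.6 to 67.4 and 20.1 to 54.9 CPM over libraries), whereas inhibitory neurons had 23.8 CPM and oligodendrocytes 17.2 CPM. Mossy cells, the glutamatergic neurons of the hilus, were lower than the other excitatory classes at 22.2 CPM, with 13.5 to 34.0 CPM over the 4 libraries on only 48 UMIs. Within inhibitory neurons the level was 44.8 CPM in Lamp5 interneurons and 34.4 CPM in Vip interneurons, against 13.3 CPM in Sst and 12.3 CPM in Pvalb interneurons. Over the 4 libraries the Lamp5 values (40.5 to 50.2 CPM) lay above all Sst values (8.95 to 16.4 CPM).

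For Inhba no genotype difference passed the test (edgeR, 0 of 12 classes tested, with an unadjusted p under 0.05 in 2 of them, and 0 by DESeq2). In CA3 pyramidal neurons the level was 90.0 and 90.6 CPM in the WT mice against 64.2 and 65.5 CPM in the KI mice. Both KI libraries were below both WT libraries there, with a log2 fold change of -0.40 ± 0.12 (edgeR, adjusted p = 0.107). It was -0.42 without KI1 and -0.38 without KI2, fits in which the WT mice alone set the spread. In oligodendrocytes WT read 26.9 and 19.7 CPM and KI 8.78 and 13.3 CPM (log2 fold change -1.11 ± 0.30, edgeR adjusted p = 0.121), which passed without the filter on low counts (0.00779). Without KI2 the log2 fold change was -1.35. In DG granule neurons the values were 86.0 and 91.1 CPM in the WT mice against 75.4 and 77.8 CPM in the KI mice, and the fitted log2 difference was -0.07 ± 0.10. Over all nuclei Inhba stood at 71.0 and 71.5 CPM in the WT mice against 54.7 and 51.5 CPM in the KI mice (log2 fold change -0.37 ± 0.10, edgeR adjusted p = 0.108). The log2 fold change there was -0.45 without KI1 and -0.32 without KI2. The KI libraries also held fewer nuclei of a class rich in Inhba, since DG granule neurons made up 28.8% and 26.6% of WT nuclei and 20.7% and 17.4% of KI nuclei. In sums over all nuclei, fewer cells of a type and less RNA per cell cannot be told apart.

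Inhbb, which encodes the beta B subunit, was scarce. Its highest class was OPC (oligodendrocyte precursor cells), with 11.6 and 14.6 CPM in the WT mice against 9.48 and 6.14 CPM in the KI mice on 49 UMIs in all. The KI values lay below the WT values without passing the test (log2 fold change -0.64 ± 0.46, edgeR adjusted p = 0.677). Astrocytes had 5.46 CPM, overlapping with OPC, and CA1 pyramidal neurons 2.99 CPM. In Cajal-Retzius cells and committed OPC no Inhbb UMI was counted. Over all nuclei the gene stood at 1.84 and 2.23 CPM in the WT mice against 0.949 and 1.19 CPM in the KI mice (log2 fold change -0.88 ± 0.25, edgeR adjusted p = 0.123, and 0.0317 without KI2).

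Of the type II receptor genes, Acvr2a was counted in every class. CA2 pyramidal neurons had a mean of 155 CPM (139 to 174 over libraries), Cajal-Retzius cells 145 CPM (116 to 193) and DG granule neurons 141 CPM (81.6 to 189), and these ranges overlapped. In the WT libraries alone DG granule neurons had the highest mean, at 189 ± 0.158 CPM (SD, n = 2). CA1 pyramidal neurons (67.9 CPM), oligodendrocytes (64.9 CPM) and astrocytes (63.0 CPM) formed the low end.

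Among DG granule neurons Acvr2a fell from 189 CPM in both WT libraries to 81.6 CPM in KI1 and 106 CPM in KI2. Both KI libraries lay far below both WT libraries, at 0.543 of the WT level (log2 fold change -0.88 ± 0.12, edgeR adjusted p = 0.0107). The call was lost with a single WT library (edgeR adjusted p = 0.0747 without WT1 and 0.0738 without WT2) and when each nucleus was assigned by its own markers (0.0595), with log2 fold changes of -0.88, -0.89 and -0.76. No such gap was seen in the other large neuron classes. CA1 pyramidal neurons had 66.0 and 70.2 CPM in the WT mice against 67.3 and 68.3 CPM in the KI mice, and the log2 difference was 0.08 ± 0.10. In CA3 pyramidal neurons it was 0.15 ± 0.12 and in inhibitory neurons -0.06 ± 0.15. Mossy cells, which lie next to the granule cell layer, read 99.1 and 88.7 CPM in the WT mice against 64.8 and 48.5 CPM in the KI mice, a difference that did not pass (log2 fold change -0.61 ± 0.28, edgeR adjusted p = 0.34). The opposite strand of the Acvr2a locus carries Orc4, a gene of the replication origin complex, and whether the counting used strand was not given in the sources used here. Orc4 itself read 115 and 123 CPM in WT DG granule neurons and 111 and 90.7 CPM in KI ones.

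Acvr2b, the other type II receptor gene, had its highest mean in microglia, at 28.1 CPM with a range of 16.9 to 40.2 CPM, and in committed OPC at 27.6 CPM, while CA1 pyramidal neurons had 4.78 CPM and DG granule neurons 4.03 CPM. It did not pass the test in any class (edgeR, 0 of 9 classes tested, 3 of them with an unadjusted p under 0.05, and 0 by DESeq2). In CA3 pyramidal neurons the level was 5.89 and 6.78 CPM in the WT mice against 2.72 and 3.68 CPM in the KI mice (log2 fold change -0.92 ± 0.32, edgeR adjusted p = 0.14). DG granule neurons read 5.89 and 4.48 CPM in the WT mice against 2.77 and 3 CPM in the KI mice (log2 fold change -0.72 ± 0.26, edgeR adjusted p = 0.132). In inhibitory neurons they read 10.1 and 10.2 CPM in the WT mice against 5.38 and 6.62 CPM in the KI mice (log2 fold change -0.65 ± 0.24, edgeR adjusted p = 0.188). In each of these 3 classes both KI libraries were lower than both WT libraries, on between 133 and 235 UMIs. With KI2 left out the log2 fold change was -1.10, -0.74 and -0.78 in the same order.

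**Figure D2:**
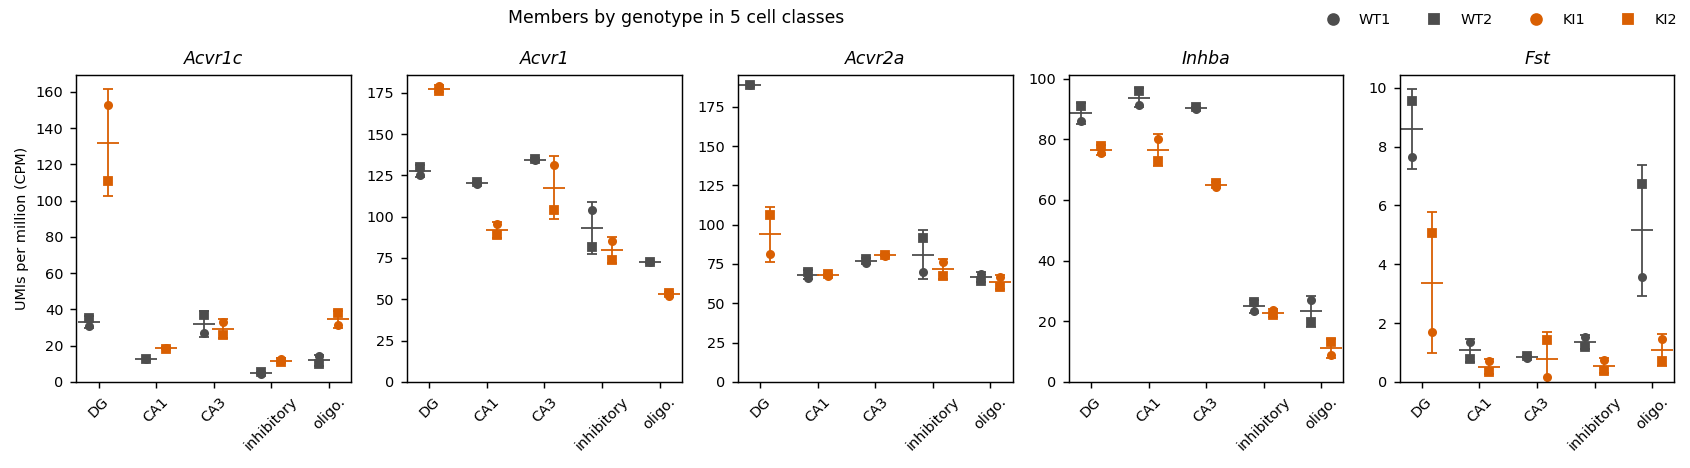
Level in CPM (y axis, from 0) of Acvr1c, Acvr1, Acvr2a, Inhba and Fst in DG granule, CA1 pyramidal, CA3 pyramidal and inhibitory neurons and oligodendrocytes, 1 point per library, with the mean and SD of the 2 mice of each genotype. In DG granule neurons Acvr1c and Acvr1 are higher and Acvr2a is lower in KI, whereas Acvr2a in CA1 pyramidal neurons is 66.0 and 70.2 CPM in the WT mice against 67.3 and 68.3 CPM in the KI mice.

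The type I receptor gene Acvr1 also had its highest mean in DG granule neurons (152 CPM, 125 to 179 over libraries), followed by CA3 pyramidal neurons at 126 CPM and microglia at 119 CPM with overlapping ranges. In the WT libraries alone the order was the reverse, with 134 and 135 CPM in CA3 pyramidal neurons above 125 and 130 CPM in DG granule neurons. CA2 pyramidal neurons were lowest at 59.7 CPM. Among interneurons the level ran from 146 CPM in Cnr1 interneurons to 50.5 CPM in Sst interneurons. Granule neurons of WT mice held 125 and 130 CPM of Acvr1, and the gene rose to 179 and 176 CPM in those of KI mice. That was a 1.53-fold difference, with little spread between mice of a genotype (log2 fold change 0.61 ± 0.09, edgeR adjusted p = 0.0141). With WT1 left out it was 0.58 and with WT2 left out 0.63, and neither passed (edgeR adjusted p = 0.247 and 0.207). In CA1 pyramidal neurons the order of the genotypes was the opposite, with 120 and 121 CPM in the WT mice against 95.6 and 88.6 CPM in the KI mice, and did not pass the test (log2 fold change -0.29 ± 0.11, edgeR adjusted p = 0.13). There the log2 fold change was -0.41 with KI1 left out and -0.20 with KI2 left out, fits in which the WT mice alone set the spread. Subicular excitatory neurons read 102 and 83.6 CPM in the WT mice against 63.4 and 68.0 CPM in the KI mice (log2 fold change -0.43 ± 0.16, edgeR adjusted p = 0.162). Over all nuclei, where these classes are added up, the log2 difference was -0.05 ± 0.09.

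Acvr1b encodes the type I receptor most used by activins and was counted in neurons and glia alike. Fibroblasts had 44.8 CPM on 76 UMIs, microglia 34.6 CPM, oligodendrocytes 30.8 CPM, DG granule neurons 29.6 CPM and CA1 pyramidal neurons 29.1 CPM, while CA3 pyramidal neurons had 18.7 CPM. The fibroblast class shrank under finer clustering, so its place here is uncertain. Its DG level was 33.3 and 34.5 CPM in the WT mice against 23.8 and 26.9 CPM in the KI mice, which did not pass the test (log2 fold change -0.29 ± 0.12, edgeR adjusted p = 0.183, and 0.00996 without KI2). In CA1 pyramidal neurons the genotypes overlapped, and the log2 difference was 0.07 ± 0.12.

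Acvr1c was the one member that passed the test over all nuclei, where 0.889% of 21718 genes passed. The sums over all nuclei read 20 and 22.2 CPM in the WT mice against 50 and 41.9 CPM in the KI mice (log2 fold change 1.18 ± 0.14, edgeR adjusted p = 0.0366). Of its 16 class means the highest was that of DG granule neurons at 82.4 CPM. In the WT libraries alone that class had 33.1 ± 3.32 CPM (SD, n = 2), and its range overlapped with that of CA3 pyramidal neurons at 31.8 ± 7.12 CPM. CA2 pyramidal neurons had the lowest mean, at 4.68 CPM. The opposite strand of Acvr1c carries Gm13544, a predicted gene, which read 4.83 and 6.52 CPM in WT DG granule neurons, 22.1 and 19.1 CPM in KI ones, and 2.20 to 3.10 CPM in CA1 pyramidal neurons of the 4 mice. Without strand, reads of the gene and of this partner cannot be told apart.

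Acvr1c also rose in 3 further classes. In CA1 pyramidal neurons it went from 12.4 and 12.6 CPM in the WT mice up to 18.9 and 18.3 CPM in the KI mice (log2 fold change 0.66 ± 0.15, edgeR adjusted p = 0.0429, where 7.77% of all genes passed). In inhibitory neurons it went from 4.55 and 5.27 CPM (WT) to 12.7 and 10.8 CPM (KI) (log2 fold change 1.36 ± 0.26, edgeR adjusted p = 0.0355, where 1.52% of all genes passed). In oligodendrocytes it went from 14.0 and 9.61 CPM (WT) to 31.3 and 37.8 CPM (KI) (log2 fold change 1.55 ± 0.25, edgeR adjusted p = 0.0275, where 0.904% of all genes passed). Within inhibitory neurons both KI libraries lay above both WT libraries in Sst, Vip, Lamp5 and Cnr1 interneurons, but not in Pvalb interneurons, which read 5.36 and 8.38 CPM in WT1 and WT2 and 7.63 and 4.10 CPM in KI1 and KI2. These subclasses held 0 to 25 Acvr1c UMIs per library and were not tested. The oligodendrocyte class joins 2 clusters, one with 2013 and 1223 WT nuclei and 29 and 84 KI nuclei, the other with 41 and 16 WT nuclei and 2077 and 777 KI nuclei, so the compared nuclei also differ by cluster. Each of these 3 calls was lost in some alternatives. The CA1 call was lost without WT1 (edgeR adjusted p = 0.315), without WT2 (0.276), with library totals as scaling (0.062) and by DESeq2 (0.0855). The inhibitory call was lost without WT1 (0.336), without WT2 (0.206) and with each nucleus assigned by its own markers (0.0524), and the oligodendrocyte call without WT2 (0.0532), with doublets kept (0.205) and with that assignment (0.217). The call in DG granule neurons was kept in 14 of 14 alternatives, with a log2 fold change of 1.85 to 2.38. In CA3 pyramidal neurons the genotypes overlapped, with 26.7 and 36.8 CPM in the WT mice against 33.2 and 25.6 CPM in the KI mice (log2 fold change -0.01 ± 0.21, edgeR adjusted p = 0.979).

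In smaller classes Acvr1c was also higher in both KI libraries without passing the test. Fibroblasts read 18.4 and 11.7 CPM in the WT mice against 80.0 and 57.9 CPM in the KI mice (log2 fold change 2.17 ± 0.44, edgeR adjusted p = 0.371, and 0.0397 without WT2 or 0.00457 without the filter on low counts). OPC read 11.6 and 6.24 CPM in the WT mice against 17.2 and 50.9 CPM in the KI mice (log2 fold change 2.06 ± 0.54, edgeR adjusted p = 0.243, and 1.98e-05 without the filter on low counts). Microglia read 21.5 and 19.6 CPM in the WT mice against 30.9 and 76.7 CPM in the KI mice (log2 fold change 1.44 ± 0.48, edgeR adjusted p = 0.729). In OPC and microglia the high value is that of KI2 alone, and without KI1 both passed (edgeR adjusted p = 0.00021 and 6.15e-06). Astrocytes read 16.5 and 16.3 CPM in the WT mice against 23.4 and 25.5 CPM in the KI mice (log2 fold change 0.63 ± 0.34, edgeR adjusted p = 0.502).

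**Figure D3:**
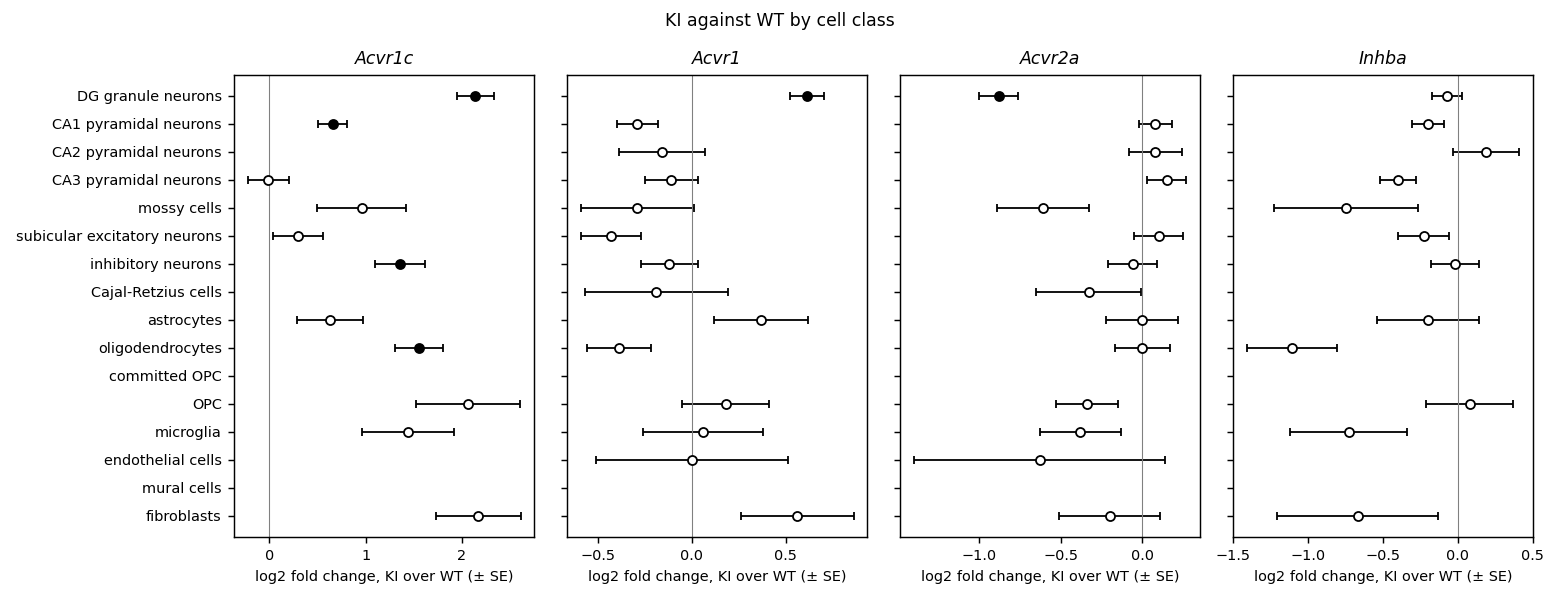
Log2 fold change of KI over WT with its SE (x axis) for Acvr1c, Acvr1, Acvr2a and Inhba in each cell class tested (rows, no point where the counts were too low), filled where the edgeR adjusted p was under 0.05. DG granule neurons hold the filled points of Acvr1 (0.61) and Acvr2a (-0.88) and the largest filled point of Acvr1c (2.14).

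Markers of DG granule neurons were measured beside Acvr1c in the other classes, because RNA of abundant cells can enter other droplets. The 8 markers were Prox1, C1ql2, Dsp, Stxbp6, Rfx3, Dock10, Glis3 and Trpc6, and all 8 were counted in DG granule neurons. Their summed level there was 4850 to 4980 CPM in WT and 3930 to 4550 CPM in KI. The single markers did not all go the same way there. Both KI libraries lay below both WT libraries for Prox1, Dsp, Rfx3 and Glis3, with Dsp at 65.1 and 55.7 CPM in WT1 and WT2 and 12.7 and 27.5 CPM in KI1 and KI2, and above them for C1ql2 and Stxbp6, while Dock10 and Trpc6 overlapped. In oligodendrocytes the sum was 2980 to 3040 CPM in WT and 2030 to 2550 CPM in KI, of which Dock10 alone made 1220 to 1910 CPM. In inhibitory neurons the sum was 785 to 787 CPM in WT and 751 to 841 CPM in KI, and in CA1 pyramidal neurons 374 to 403 CPM in WT and 369 to 371 CPM in KI. In these 4 classes the marker sum in KI lay below that in WT or overlapped with it, while the number of Acvr1c UMIs per 100 marker UMIs went up in DG granule neurons (0.618 to 0.732 in WT, 2.43 to 3.89 in KI) and likewise in oligodendrocytes (0.317 to 0.471 in WT, 1.23 to 1.86 in KI). In fibroblasts the marker sum was 739 to 1680 CPM in WT and 801 to 1090 CPM in KI. Mean WT levels of Prox1, Stxbp6, Dock10 and Trpc6 were 51.6, 170, 181 and 151 CPM in inhibitory neurons. In CA1 pyramidal neurons they were 11.7, 20.6, 54.7 and 38.8 CPM, whereas Rfx3 was higher there (235 against 186 CPM). The part of inhibitory neurons' own RNA in their marker sum was not tested. The number of Acvr1c UMIs per 100 marker UMIs was 0.579 to 0.67 in WT and 1.28 to 1.69 in KI in inhibitory neurons. The WT values there lay in or near the WT range of DG granule neurons, and the KI values below the KI range of that class. Acvr1c UMIs per 100 marker UMIs were 3.07 to 3.37 in WT and 4.94 to 5.12 in KI in CA1 pyramidal neurons. They were 1.09 to 1.59 and 7.22 to 7.36 in fibroblasts, whose KI values lay above those of DG granule neurons. In OPC and microglia the markers were higher in KI2 than in KI1, as Acvr1c was, with sums of 1910 against 922 CPM in OPC and 2380 against 1040 CPM in microglia. WT sums there were 1340 to 1700 CPM in OPC and 2020 to 2550 CPM in microglia, and Acvr1c UMIs per 100 marker UMIs were 0.465 to 0.685 in WT and 1.87 to 2.66 in KI in OPC, and 0.845 to 0.97 and 2.99 to 3.22 in microglia. No defining marker was at 0 in oligodendrocytes, and the part of DG granule neuron RNA in the Acvr1c counts of the other classes was not tested.

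**Figure D4:**
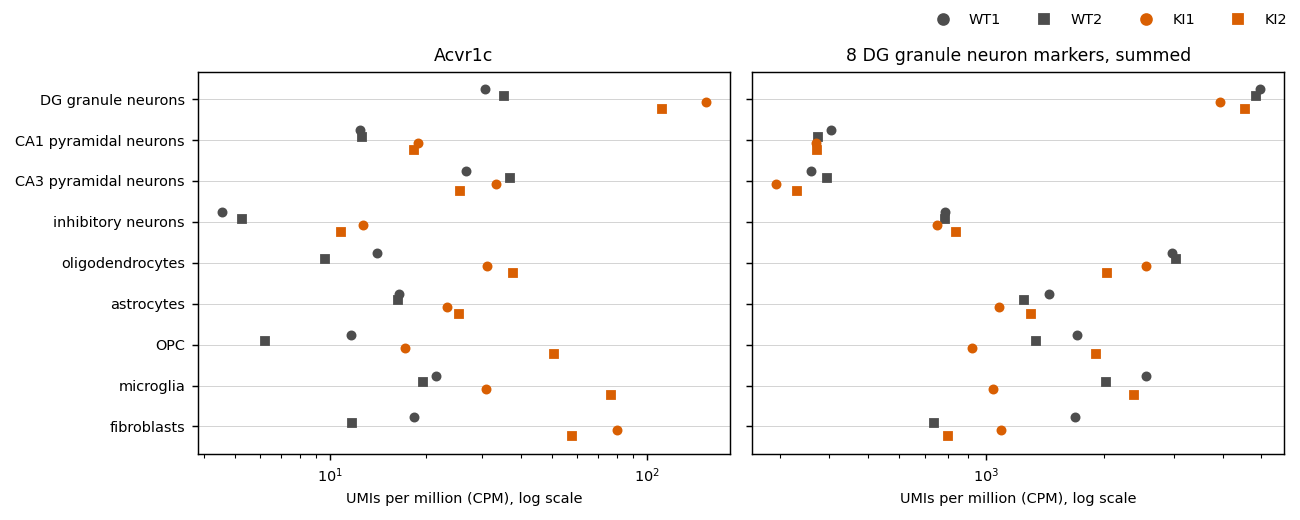
Acvr1c (left) and the sum of 8 DG granule neuron markers (right) in CPM on log axes, in 9 cell classes (rows), 1 point per library, grey for WT and orange for KI. Acvr1c in DG granule neurons is 111 and 153 CPM in KI against 30.7 and 35.4 CPM in WT, whereas the marker sum there is 3930 to 4550 CPM in KI and 4850 to 4980 CPM in WT.

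The DG difference in Acvr1c was spread over many nuclei. After thinning each DG nucleus to 2000 UMIs, 5.68% of WT1 and 7.10% of WT2 nuclei held at least 1 Acvr1c UMI, against 25.6% of KI1 and 18.2% of KI2 nuclei. Before thinning the shares were 10.5% and 13.8% in WT and 45.5% and 32.6% in KI, at medians of 3726, 4161, 4408 and 3970 UMIs per nucleus. Thinning left out DG nuclei below 2000 UMIs and used 4011 of 4297, 3183 of 3293, 2433 of 2470 and 2100 of 2224. In inhibitory neurons, a class with a low level and deeper nuclei (medians of 5325 to 6689 UMIs), the thinned shares were 1.27% in both WT libraries, 2.29% in KI1 and 2.13% in KI2. For Acvr2a the thinned share in DG went the other way, from 28.8% and 28% in WT to 14.5% and 17.4% in KI. For Acvr1 it was 21.7% and 22.5% in WT and 29.9% and 28.2% in KI.

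Fst encodes follistatin, which binds and neutralises activin. Its highest class was DG granule neurons, at 7.63 and 9.55 CPM in the WT mice against 1.68 and 5.07 CPM in the KI mice, from 136, 145, 20 and 49 UMIs. Both KI libraries were below both WT libraries, but the difference did not pass the test (log2 fold change -1.26 ± 0.43, edgeR adjusted p = 0.116). With the replicate number as a block it was -1.34 (edgeR adjusted p = 0.000335), although the labels tie no number to a litter or day. It passed when KI1 was left out (log2 fold change -0.65, edgeR adjusted p = 0.0227) and when KI2 was left out (-2.17, edgeR adjusted p = 5.19e-11), fits in which the WT mice alone set the spread, and without the filter on low counts (edgeR adjusted p = 0.00334). Outside DG granule neurons no class had more than 40 Fst UMIs over the 4 libraries. The filter on low counts removed Fst in those classes, so the main test did not cover it there. Over all nuclei Fst stood at 3.34 and 3.76 CPM in the WT mice against 1.25 and 2.21 CPM in the KI mice (log2 fold change -0.99 ± 0.30, edgeR adjusted p = 0.134, and 0.00826 without KI2).

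Bambi, the decoy receptor gene, was highest in astrocytes, at 13.4 and 10.2 CPM in the WT mice against 10.9 and 12.8 CPM in the KI mice. The genotypes overlapped there (log2 fold change 0.08 ± 0.44, edgeR adjusted p = 0.968) and in DG granule neurons, where the gene stood at 5.50 and 6.06 CPM in the WT mice against 4.28 and 7.55 CPM in the KI mice. In neither class was a difference detectable at this depth, and no Bambi UMI was counted in mossy cells.

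Of the 144 possible combinations of a member and a class, 80 had counts enough for the test, 20 of these had an unadjusted p under 0.05 and 6 passed after adjustment, 5 upward and 1 downward. Among all genes the unadjusted p was under 0.05 for 4784 of 16339 in DG granule, 4342 of 16119 in CA1 pyramidal and 2982 of 15085 in inhibitory neurons. In oligodendrocytes it was so for 2028 of 12937. In these classes, which held the calls, 9.85%, 7.77%, 1.52% and 0.904% of all genes passed after adjustment. With 1 library left out, fewer calls were made without WT1 or WT2 and more without KI1 or KI2. The share of all genes that passed in those fits is not given here. With all libraries, the remaining classes added no call. The shares of all genes that passed were 3.04% in CA2 pyramidal, 3.63% in CA3 pyramidal, 1.14% in mossy and 3.01% in subicular excitatory cells, 0.139% in astrocytes, 0.119% in OPC and 0.0244% in fibroblasts. In Cajal-Retzius cells, committed OPC, microglia, endothelial and mural cells edgeR passed 0% of the genes (0 of 3764, 2314, 9463, 2551 and 1058), with 212, 92, 594, 201 and 51 genes at an unadjusted p under 0.05, and DESeq2 also passed 0. No statement on a member can be drawn there from a missing call. The median log2 fold change of the 9 members in DG granule neurons was -0.29, beside 0.00 over all genes tested in that class.

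Whether the genotype difference itself differed between neuron classes was tested with DG granule neurons as the reference, in 26 combinations of a member with CA1 pyramidal, CA3 pyramidal or inhibitory neurons. It differed in 8 of them (edgeR, a genotype by class interaction that took each library as a block). Acvr1c rose more in DG granule neurons than in CA1 pyramidal neurons, by 1.48 on the log2 scale (CA1 minus DG -1.48 ± 0.15, edgeR adjusted p = 4.48e-05, where 13.6% of all genes passed). Against CA3 pyramidal neurons the gap was wider (CA3 minus DG -2.15 ± 0.13, edgeR adjusted p = 3.17e-07, where 10.1% of all genes passed). Against inhibitory neurons it was -0.75 ± 0.22 and did not pass (edgeR adjusted p = 0.0543, where 8.38% of all genes passed). For Acvr1 the term was -0.92, -0.73 and -0.72 in CA1, CA3 and inhibitory neurons, and for Acvr2a it was 0.96, 1.04 and 0.83, all past the threshold. In inhibitory neurons the Acvr2a term was lost without WT1 or WT2 (edgeR adjusted p = 0.194 and 0.0502) and the Acvr1 term without WT1 (0.204), while the Acvr1c term passed without KI2 (0.0107) and with doublets kept (0.0239). The Inhba term passed in none of the 3 (-0.14, -0.33 and 0.06, with edgeR adjusted p of 0.425, 0.056 and 0.873), although the CA3 term passed without KI1 (0.0447) or KI2 (0.0376).

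Beside the members, 65 other genes of the transforming growth factor beta family pathway were counted, in lists of other ligands, other receptors and co-receptors, secreted antagonists and ligand processing, Smads and their regulators, and target genes with corepressors. In DG granule neurons 2 of the 50 tested rose and 6 fell, where 9.85% of all genes passed. Tgfbr2, the type II receptor for TGF-beta, went from 3.93 and 4.61 CPM in the WT mice up to 24.8 and 18.0 CPM in the KI mice (log2 fold change 2.47 ± 0.24, edgeR adjusted p = 0.00382). Its partner Tgfbr1, the type I receptor, went the other way, from 68.1 and 72.9 CPM (WT) to 17.6 and 16.4 CPM (KI) (log2 fold change -1.91 ± 0.13, edgeR adjusted p = 0.00229). Of the antagonist list 1 of 13 rose, the follistatin-like gene Fstl4 (WT mice 285 and 295 CPM, KI mice 437 and 394 CPM, edgeR adjusted p = 0.0156, but 0.187 without WT1 and 0.159 without WT2).

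Smad7, the inhibitory Smad that many cells induce on TGF-beta or activin signalling, was lower in KI in 4 excitatory classes. It fell in DG granule neurons from 29.7 and 31.6 CPM (WT) to 8.64 and 7.96 CPM (KI) (log2 fold change -1.74 ± 0.15, edgeR adjusted p = 0.00325). It fell by 1.0 on the log2 scale in CA1 pyramidal neurons (WT mice 38.2 and 37.4 CPM, KI mice 16.8 and 18.9 CPM), by 1.28 in CA3 pyramidal neurons and by 1.55 in subicular excitatory neurons (edgeR adjusted p of 0.00912, 0.0106 and 0.00583). Smad3, the Smad that activin receptors phosphorylate, fell in CA1 pyramidal neurons from 70.4 and 62.7 CPM (WT) to 28.9 and 20.8 CPM (KI) (edgeR adjusted p = 0.0139) and in subicular excitatory neurons from 126 and 113 CPM (WT) to 31.5 and 42.3 CPM (KI) (edgeR adjusted p = 0.000785). Both subicular calls, of Smad7 and of Smad3, were lost without KI1 (edgeR adjusted p = 0.313 for each), without KI2 (0.155 for each), without the filter on low counts (0.247 for each) and by the markers of each nucleus (0.43 for Smad7 and 0.426 for Smad3). Of the Smad list, 2 of 11 tested fell and 0 rose in each of the DG, CA1 and subicular classes, and 1 of 11 fell in CA3 pyramidal neurons, beside 9.85%, 7.77%, 3.01% and 3.63% of all genes in the same order.

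Of the target genes and corepressors, 2 of 11 tested fell in DG granule neurons, 2 of 10 in CA1 pyramidal, 1 of 7 in CA3 pyramidal and 1 of 6 in subicular excitatory neurons, and the rest did not pass there, beside 9.85%, 7.77%, 3.63% and 3.01% of all genes in the same order. Pmepa1, a target that damps the pathway, fell in DG granule neurons from 26.4 and 29.5 CPM (WT) to 12.1 and 11 CPM (KI) (log2 fold change -1.14 ± 0.15, edgeR adjusted p = 0.00947, but 0.0557 without WT1, 0.0982 without WT2 and 0.184 by the markers of each nucleus). Junb fell in CA1 pyramidal neurons (WT mice 21.7 and 29.1 CPM, KI mice 12.2 and 12.1 CPM, edgeR adjusted p = 0.0273, but 0.146 without WT2). Skil, a corepressor of Smads, fell in CA3 pyramidal neurons by 0.78 and in subicular excitatory neurons by 0.95 on the log2 scale (edgeR adjusted p of 0.0432 and 0.0317). The CA3 call was lost without WT1 or WT2 (0.496 and 0.158), by DESeq2 (0.102) and by the markers of each nucleus (0.206). The subicular call was lost without WT1 (0.326), KI1 (0.317) or KI2 (0.158), without the filter on low counts (0.328), by DESeq2 (0.071) and by the markers of each nucleus (0.445). Skil also fell in DG granule neurons (log2 fold change -0.74 ± 0.12, edgeR adjusted p = 0.0162, but 0.2 without WT1, 0.205 without WT2 and 0.0656 by the markers of each nucleus) and in CA1 pyramidal neurons (-0.83 ± 0.14, edgeR adjusted p = 0.0224, but 0.0846 without WT1), classes added after their values were seen. In oligodendrocytes, where 0.904% of all genes passed, the one list member of 9 tested that passed was Cdkn1a, the cell cycle inhibitor p21, which rose from 20 and 12 CPM (WT) to 106 and 76.2 CPM (KI) (log2 fold change 2.55 ± 0.27, edgeR adjusted p = 0.0039, but 0.227 with doublets kept and 0.223 by the markers of each nucleus).

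In CA1 pyramidal neurons 3 of 47 tested pathway genes rose and 5 fell, where 7.77% of all genes passed. Fstl5, a follistatin-like gene, went from 25.9 and 19.5 CPM (WT) to 62.2 and 64.7 CPM (KI) (log2 fold change 1.57 ± 0.15, edgeR adjusted p = 0.00458) and also rose in CA2 pyramidal neurons by 0.60 ± 0.14 on the log2 scale (edgeR adjusted p = 0.0126). The co-receptor gene Tgfbr3 went from 84.2 and 92.0 CPM (WT) to 161 and 139 CPM (KI) in CA1 pyramidal neurons (edgeR adjusted p = 0.0141). In CA2 pyramidal neurons the ligand gene Tgfb2 went from 41.6 and 57.9 CPM (WT) to 106 and 86.3 CPM (KI) (edgeR adjusted p = 0.00387). In CA3 pyramidal neurons, where 3.63% of all genes passed, 4 of 41 rose and 2 fell, among them the bone morphogenetic protein antagonist Chrd (WT mice 72.8 and 83.9 CPM, KI mice 107 and 110 CPM, edgeR adjusted p = 0.0437). The Chrd call was lost without WT1 or WT2 (edgeR adjusted p = 0.655 and 0.28), with library totals (0.0653), with doublets kept (0.056) and by the markers of each nucleus (0.249), and the CA2 calls of Tgfb2 and Fstl5 without WT1 (0.424 and 0.495) or WT2 (0.0613 and 0.205). The inhibitory neurons and astrocytes held none, since edgeR passed 0 of 42 and 0 of 39 pathway genes, with an unadjusted p under 0.05 for 11 and 9 of them, and DESeq2 also passed 0 in both. Among all genes the unadjusted edgeR p was under 0.05 for 2982 of 15085 in inhibitory neurons and 1261 of 10753 in astrocytes. Of the 19 pathway calls named by rule, which leave out Skil in DG granule and CA1 pyramidal neurons, 12 were kept without WT1 and 12 without WT2, 16 without KI1 and 16 without KI2. With each nucleus assigned by its own markers 17 of them could be tested, since that assignment gave no CA2 class to test, and 10 were kept. Tgfbr1, Tgfbr2 and Smad7 in DG granule neurons were kept in each of these 5 fits.

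**Figure D5:**
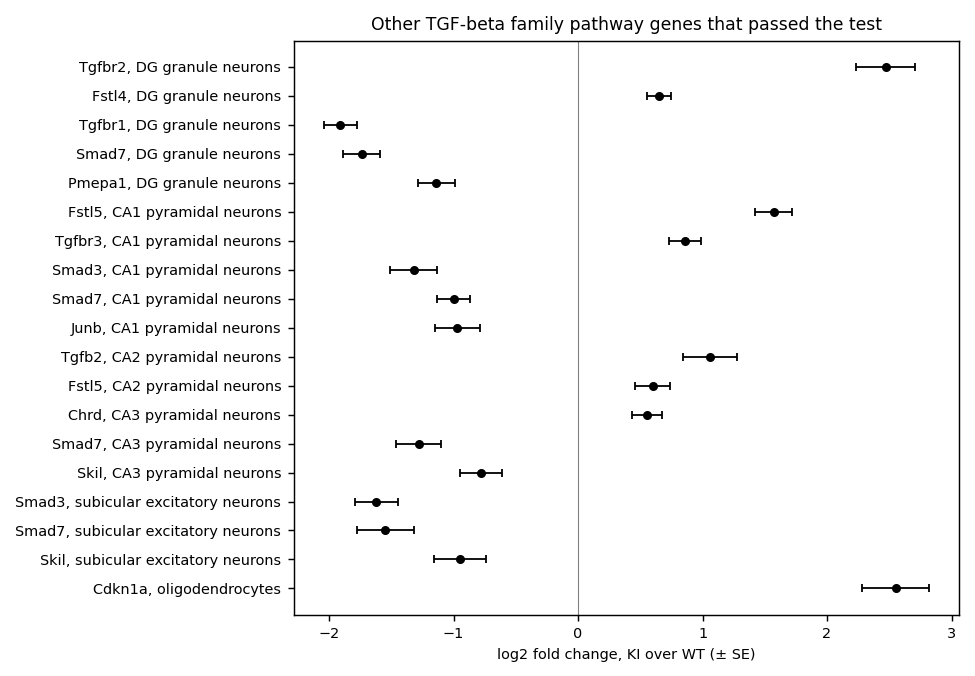
Log2 fold change of KI over WT with its SE (x axis) for the pathway genes outside the 9 members that had an adjusted p under 0.05 and a mean of at least 10 CPM in a class, up to 3 per direction and class (rows). Tgfbr2 in DG granule neurons (2.47) and Cdkn1a in oligodendrocytes (2.55) lie highest, Tgfbr1 (-1.91) and Smad7 (-1.74) in DG granule neurons lowest.

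Genes whose class pattern was most like a member were ranked by Pearson's r of log2(CPM + 1) over the 16 class means, among 14544 genes of at least 10 CPM in some class. The class means share libraries, depth and the markers that made the classes, so r is a description. Inhba was most like Kcnab2 (r = 0.941), and A530046M15Rik was also among its nearest 3. Map2k1 was among the 3 genes nearest to Acvr1c. Acvr1 was most like Camkk1 (r = 0.86) and Acvr2a like Slc6a15 (r = 0.774). For Acvr1b the nearest gene was Ppp3r1 (r = 0.927), for Acvr2b Cep68 (r = 0.882), for Bambi Tmem106b (r = 0.894) and for Inhbb D330050G23Rik (r = 0.785). Fst had no class at 10 CPM and was not compared.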

How the data were processed

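Nuclei of the frozen hippocampi of 4 mice (2 WT and 2 KI, groups from the GEO titles) were profiled by droplet 3′ single-nucleus sequencing. Cell Ranger 7.0.1, per the file headers, gave the matrices of the authors, and the submitters' processing notes name mm10. The deposited values are raw UMI counts per gene and nucleus, not normalized. The annotation release, and whether intronic reads and strand were used, were not given in the sources used here, and gene positions are those of GENCODE M21, which held 32235 of the 32285 gene IDs. Libraries were 1 per mouse, so p-values cover the spread between mice and their preparation.

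A barcode needed 500 genes and a mitochondrial UMI share below 5% (345 removed), and 3263 doublets (5.9%) were removed above a common Scrublet score of 0.25. Counts scaled to 10000 per nucleus were reduced to 2000 variable genes and 30 components in scanpy 1.11.5, without the 9 members and the pathway lists, and clustered with leidenalg 0.10.2 (20 neighbours, resolution 0.5) into 28 clusters. A cluster was named where at least 3 markers, and at least 0.75 of a class's list, were raised at least 2-fold, unless its leading genes, its median doublet score (above 0.15) or a second class (0.9 of its list raised) went against the name. Names can differ from those of the study. Nuclei were pooled into 1 count sum per library, for all nuclei and for every class that had 20 or more nuclei in each library, and CPM is a count over that sum. KI was compared with WT on these sums by the quasi-likelihood test of edgeR 4.0.16 (R 4.3.3) with filterByExpr, TMM factors and Benjamini-Hochberg adjustment over all genes of a fit, threshold 0.05, two-sided. SE is the log2 fold change over the square root of F. The study tested single nuclei, whereas nuclei were not used as replicates here. The edgeR fit of KI against WT was tried on simulated counts for all nuclei, DG granule neurons, CA1 pyramidal neurons and astrocytes. The interaction fits, DESeq2 and the fits without 1 library were not. DESeq2 1.42.0, other scalings and filters, and leaving out each library were tried as alternatives.

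All 9 members are named. Pathway genes are named at an adjusted p under 0.05 and a mean of at least 10 CPM in a class, up to 3 per direction and class, and the 3 genes most alike are ranked for each member of at least 10 CPM in some class. Some of the ranked genes are not reported here. The members and the lists were chosen with earlier results of these data known. One pathway symbol, Cripto, was not among the symbols of the files. Promoters are RefSeq sequences (GRCm38.p6) and matched 7 of the 9 members. The SE holds the spread between libraries as edgeR fitted it, and the SD is taken over the libraries named. Shares of nuclei carry no interval.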

Additional observations from a re-analysis of the deposited data

Results flagged for a closer look

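The genotype difference in DG granule neurons departed from that in another neuron class for 3 members, by the interaction of class and genotype in edgeR (n = 2 mice per genotype, adjusted over all genes). For Acvr1c the term was -1.48 in CA1 pyramidal and -2.15 in CA3 pyramidal neurons, relative to DG granule neurons. For Acvr1 it was -0.92 in CA1 pyramidal, -0.73 in CA3 pyramidal and -0.72 in inhibitory neurons, and for Acvr2a it was 0.96, 1.04 and 0.83 in the same order. With DG granule neurons in common, the comparisons of a gene share the same 4 DG sums and are not independent of each other. Groups of 2 mice were too small to look for a single library far from the others.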

How the results depend on the processing

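Over all nuclei, 1 member passed (Acvr1c), and it was kept in each of the 12 alternatives, which gave 1 call in 9 of them, 2 with the replicate block (Fst added) and 1 to 6 with 1 library left out. Over cell classes the 6 calls became 10 without the low-count filter, 3 with each nucleus gated by its own markers, 8 with the replicate block (Fst in DG granule neurons and Acvr1c in OPC added), 5 with library totals, DESeq2 or doublets kept, and 2 to 17 with 1 library left out. The 8 calls of a genotype difference that departed from DG granule neurons became 8 or 9 with library totals, without the filter, with doublets kept or at 1000 genes, and 6 to 11 with 1 library left out; other alternatives were not run for them. Of the single results compared across alternatives, 1332 kept their side of the threshold, 38 newly passed, 18 no longer passed, and none changed sign as a call. Results that did not pass could change sign, such as Bambi in DG granule neurons (log2 fold change 0.15, and -0.26 to 0.49 over alternatives). Leaving out a library leaves 1 mouse in a genotype, which is then assumed to vary like the pair of the other genotype. Without a KI library the spread comes from WT mice, and more members passed in the cell classes than without a WT library. The share of all genes that passed with 1 library left out is not given here. Member calls in those fits cannot be set against it. Among calls not given beside the results, Acvr2b and Acvr1b over all nuclei passed without KI2 (edgeR adjusted p = 0.0292 and 0.0421), the CA1 minus DG term of Acvr1b passed with library totals (0.0341) and without KI2 (0.0482), Inhba in CA1 and Acvr1 in CA3 pyramidal neurons passed without KI1 (edgeR adjusted p = 0.00151 and 0.0119), and Inhbb and Acvr2b in CA1 pyramidal neurons and Inhba in microglia without KI2 (edgeR adjusted p = 0.0129, 0.00438 and 0.0103). Apart from fewer samples, genes or nuclei tested, the cause of these moves was not tested.

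Replicate numbers were checked for pairing: deviations of same-numbered WT and KI libraries correlated at 0.068 and the labels tie no number to a litter or day, so the numbers were not taken to pair the mice, and whether same-numbered mice shared a batch was not tested. In the fit with the replicate block, Fst in DG granule neurons had an edgeR adjusted p of 0.000335 and Fst over all nuclei 0.0413, Acvr1c in OPC 0.0309, and no call was lost.

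The number of genes passing among all genes moved more than that of the members. For all nuclei it was 193, and 1829 by DESeq2, 710 without the filter and 1955 with the replicate block. In DG granule neurons it was 1610, and 3343 without the filter, 2933 with the block and 904 by the gate. CA1 pyramidal neurons had 1253 and 2323 with the block, CA2 298 and 77 by DESeq2 and 139 at equal depth, and CA3 532, 1699 without the filter and 1102 with the block. Mossy cells had 77, and 27 by DESeq2, 120 without the filter and 122 with the block. Subicular neurons had 395, and 202 by DESeq2, 0 without the filter, 1060 with the block, 209 with doublets kept and 0 by the gate (2591 genes without the filter and 1253 by the gate had an unadjusted p under 0.05). Inhibitory neurons had 230, and 1304 without the filter, 1075 with the block and 348 at equal depth. Oligodendrocytes had 117, and 902 without the filter, 190 with the block, 70 at 1000 genes, and 0 with doublets kept or by the gate (1701 and 1665 genes had an unadjusted p under 0.05). DESeq2 was run on the classes and filters as reported only. Astrocytes had 15 (0 to 303 over alternatives with all libraries), OPC 13 (0 to 285) and fibroblasts 2 (0 to 30), and the classes with 0 reached at most 98. Library totals as scaling moved the median of all genes by over 0.1 in some classes (to -0.135 in DG granule, -0.109 in inhibitory and -0.102 in mossy cells and -0.116 in OPC), and the upward share of calls from 49.9% to 33.7% in DG granule, 62.4% to 49.1% in CA1, 60.4% to 45.5% in CA2, 62.4% to 48.7% in CA3, 68.8% to 42.3% in mossy, 54.4% to 42.3% in subicular and 67.0% to 44.0% in inhibitory cells. Under that scaling the Acvr1c, Acvr1 and Acvr2a calls in DG granule neurons were kept with their direction.

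The class with the highest mean changed for 3 members. For Acvr1b it was fibroblasts, and microglia (35.3 CPM) with doublets kept, where fibroblasts dropped out, and a class of upper layer and retrohippocampal neurons (30.2 CPM) by the gate. For Acvr2a it was CA2 pyramidal neurons, and DG granule neurons (156 CPM) by the gate. For Acvr2b it was microglia, and committed OPC with doublets kept (29.6 CPM) or at 1000 genes (28.4 CPM). Depth limits Inhbb, Acvr2b, Fst and Bambi most.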
